A study of Mus musculus with 3 samples.

Results

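The genes described here are 10 receptors and bridging proteins by which phagocytes find and hold dead cells, read in 3 RNA libraries of wild-type (WT) mouse vestibular cells. They were taken by symbol from the deposited expression table, which lists 57180 genes, and each symbol matched exactly 1 row. Mertk, Axl, Tyro3, Timd4, Itgav, Itgb5 and Lrp1 encode 7 receptors or receptor chains, and Gas6, Pros1 and Mfge8 encode 3 bridging ligands. The vestibule is the balance organ of the inner ear, and the study picked cells there that look like black balls under the microscope. The labels call these cells macrophages, the series title speaks of melanocytes, and both sets of markers are given below. Per the labels' protocols, 18 cells came from 9 mice at 3 mice per group. The sources used here do not say which cells and mice went into which library. All 3 libraries carry the same genotype and group, no treated or control group is among the samples, and neither strain nor age is stated in the labels.

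Dying cells move the lipid phosphatidylserine to their outer surface, where it serves as the main signal for uptake. Some receptors bind the lipid directly, and others reach it through a soluble bridge that holds the lipid at one end and the receptor at the other. TYRO3, AXL and MERTK, the TAM receptor tyrosine kinases, use the vitamin K-dependent bridges GAS6 and protein S. Integrins that contain the αv chain use MFG-E8, and LRP1 is a large endocytic receptor that takes part in uptake of cells coated with calreticulin. In tissues, MERTK is a familiar macrophage receptor, while the bridges are secreted by many cell types.

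The libraries held between 14095521 and 18460546 counts. Levels are given in TPM, the deposited FPKM (counts per kilobase of gene and by library total) brought to one common sum per library, because only a value per length allows genes to be compared. A gene was called present above 1 TPM when limma's moderated test of log2(TPM + 1), one-sided and adjusted by Benjamini-Hochberg over 27265 genes, gave an adjusted p under 0.05. Nothing ties the libraries to separate animals, so p-values measure only the spread between them, which may be technical. Of macrophage markers without Mertk, 14 of 17 passed, with a summed level of 8993, 5783 and 6574 TPM in replicates 1, 2 and 3. Of melanocyte markers 9 of 15 passed, with sums of 582, 707 and 715 TPM. Markers of hair cells (10 of 10), supporting epithelium (9 of 10), fibroblasts (8 of 10) and Schwann cells (7 of 10) passed as well. Endothelial markers passed in 2 of 10. These counts stand beside 50.5% of protein-coding genes. In each of these lists some calls ended without replicate 1. The fibroblast sums, 13090.5, 13290.6 and 9553.67 TPM in replicates 1, 2 and 3, exceeded the macrophage sums in each library. Schwann cell markers summed to 8545, 6835 and 9691 TPM. Single genes weighed heavily in some of these sums. Mean log2(TPM + 1) was 12.98 for S100b (Schwann cell list), 12.89 for Coch (fibroblast list) and 12.12 for Lyz2 (macrophage list). The median of the mean levels was 8.76, 34.6 and 24.3 TPM over these lists in the same order. Supporting epithelium had 2639.5, 1808 and 1864 TPM and hair cells 635, 503 and 794 TPM. Each library is a single sum over the picked material, so the cell of origin of a transcript is unknown, and fewer cells of a type cannot be told apart from less RNA per cell.

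Of the 10 clearance genes, 8 stood above 1 TPM, against a background of 37.6% of all genes tested and 50.5% of protein-coding genes. Of the receptors 5 of 7 passed, and of the ligands 3 of 3. The median of the mean levels was 10.6 TPM over the 10 genes, 8.89 TPM over the receptors and 25.8 TPM over the ligands, beside 2.24 TPM over all genes tested and 4.55 TPM over protein-coding genes. Without replicate 1 the count fell to 4 of 10, and with every gene of the table in the fit it fell to 5 of 10.

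**Figure D1:**
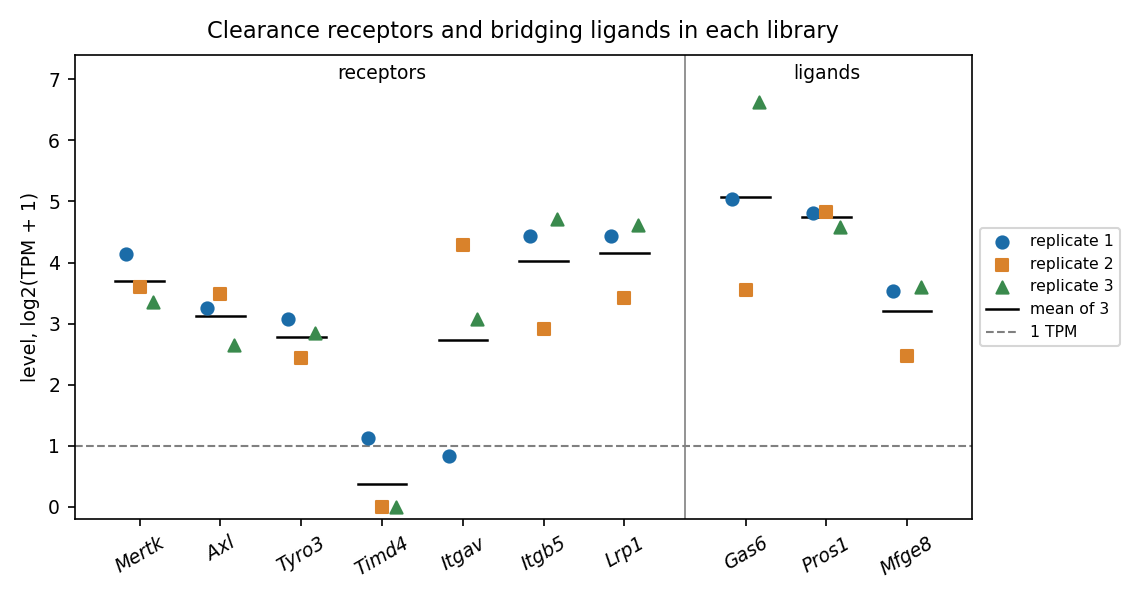
Levels of the 7 receptor genes (left) and the 3 ligand genes (right) as log2(TPM + 1), with 1 symbol per library, a black line at the mean and a dashed line at 1 TPM. Pros1 differs little between libraries, Gas6 spans 10.7 to 98.5 TPM, and Timd4 has no count in replicates 2 and 3.

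All 3 TAM receptor genes were present, in the order Mertk, Axl and Tyro3. Mertk encodes the receptor kinase by which macrophages engulf apoptotic cells (chromosome 2, 128540876 to 128644814, build GRCm39 as for all gene positions unless stated). It had 755, 456 and 372 counts, or 16.7, 11.1 and 9.20 TPM, in replicates 1, 2 and 3. Replicate 1 was highest, and the mean was 12.3 ± 3.88 TPM (SD, n = 3, as for all means below). In limma's test against 1 TPM the adjusted p was 0.000514, and 71.1% of protein-coding genes had a lower mean.

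Axl, whose product binds GAS6 but not protein S, lies on chromosome 7 (25456698 to 25488130). Its levels were 8.495, 10.2 and 5.27 TPM from 539, 587 and 298 counts in replicates 1, 2 and 3, with a mean of 7.98 ± 2.49 TPM (limma, adjusted p = 0.00218). Replicate 2 was highest for Axl and replicate 3 lowest. Tyro3, the TAM gene best known from neurons (chromosome 2, 119628214 to 119648585), had 7.42, 4.39 and 6.16 TPM from 509, 274 and 377 counts. Its mean was 5.99 ± 1.52 TPM (limma, adjusted p = 0.00494), with replicate 2 lowest. Without replicate 1, Axl (limma, adjusted p = 0.0551) and Tyro3 (adjusted p = 0.0677) no longer passed.

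Within a library Mertk stood above Axl and above Tyro3 in 3 of 3 libraries. Mertk minus Axl was 0.89, 0.11 and 0.70 in replicates 1, 2 and 3 on the log2(TPM + 1) scale, with a mean of 0.57 ± 0.41. Mertk minus Tyro3 was 1.07, 1.16 and 0.51, with a mean of 0.91 ± 0.35. Each difference had p = 0.25 in an exact two-sided sign-flip permutation test (adjusted p = 0.429 over 12 pairs), and 0.25 is the smallest p that 3 libraries allow. Axl minus Tyro3 was 0.17, 1.05 and -0.19, with a mean of 0.34 ± 0.64 that was smaller than its spread (exact permutation test, p = 0.75 and adjusted p = 0.75), and without replicate 2 it turned to -0.0090. With lengths of annotated transcripts in place of the deposited ones, Mertk minus Axl shrank to 0.12 and Mertk minus Tyro3 to 0.29, and without gene length they were 0.14 and 0.41.

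The 3 receptors are recognised as a family by a conserved stretch of 7 codons in the kinase domain. The coding bases of that stretch are shown because a family this alike could share reads. Each sequence comes from the GENCODE vM21 transcript, with the 7 codons of the signature in capitals and 3 flanking codons on each side.
Mertk: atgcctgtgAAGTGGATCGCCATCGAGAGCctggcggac
Axl: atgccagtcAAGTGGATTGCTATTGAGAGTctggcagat
Tyro3: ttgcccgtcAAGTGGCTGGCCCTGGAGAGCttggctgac
These bases lie at chr2:128793040-128793078 (plus strand, exon 17 of 19), chr7:25761432-25761470 (minus strand, exon 18 of 20) and chr2:119812897-119812935 (plus strand, exon 17 of 19) of build GRCm38. Within the 21 capital bases Mertk and Axl share 17, Mertk and Tyro3 share 17, and Axl and Tyro3 share 15. Over all 39 bases the shared numbers are 31, 30 and 28 in the same order, so no 2 of the genes are identical here.

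The ligands of these kinases were both present. Gas6 (chromosome 8, 13515374 to 13544490) encodes the bridge used by all TAM receptors and had the highest mean level of the 10 genes. It had 606, 185 and 1661 counts, or 32.04, 10.7 and 98.5 TPM, in replicates 1, 2 and 3. Replicate 3 held 9.17 times the level of replicate 2, and the mean was 47.1 ± 45.8 TPM (limma, adjusted p = 0.00194). This spread was far above the counting error, which gives a coefficient of variation of 5.05% against the 97.2% observed. The call ended without replicate 1 (limma, adjusted p = 0.0889) and with every gene of the table in the fit (adjusted p = 0.109).

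The end of Gas6 overlaps Tmem255b, a gene of the opposite strand, over 3100 bases. Tmem255b had 1700, 705 and 418 counts in replicates 1, 2 and 3. It was lowest in the library where Gas6 was highest. The sources used here do not say whether strand was used in counting, so reads in the overlap cannot be assigned with certainty. Of the neuron list 4 of 10 markers passed, beside 50.5% of protein-coding genes. The neuron list was also highest in replicate 3, with sums of 77.0, 74.6 and 346 TPM in replicates 1, 2 and 3. So were the Schwann cell (8545, 6835 and 9691 TPM), hair cell (635, 503 and 794 TPM), melanocyte and endothelial lists. Those of macrophages, fibroblasts and supporting epithelium were not. The part of any of these lists in the Gas6 level was not tested.

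Pros1 (chromosome 16, 62674670 to 62749709) encodes protein S, an anticoagulant and the bridge for MERTK and TYRO3. It had 924, 849 and 693 counts, or 27.2, 27.4 and 22.9 TPM, in replicates 1, 2 and 3. The 3 libraries lay close together, and Pros1 was the steadiest of the 10 genes. Its mean of 25.8 ± 2.57 TPM gave the smallest adjusted p of the 10 (limma, 4.35e-05). Gas6 stood above Pros1 in replicates 1 and 3 and below it in replicate 2. The difference Gas6 minus Pros1 was 0.23, -1.27 and 2.06, with a mean of 0.34 ± 1.67 (exact permutation p = 0.75, adjusted p = 0.75). Its sign turned without replicate 3 (-0.52), without gene length (-0.49) and with annotated transcript lengths (-0.11).

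With the deposited gene lengths, receptors stood below the TAM ligands in 4 of the 5 pairs in every library. Mertk minus Pros1 was -0.67, -1.24 and -1.22, with a mean of -1.05 ± 0.32 (exact permutation p = 0.25, adjusted p = 0.429). Tyro3 minus Pros1 was -1.74, -2.40 and -1.74, with a mean of -1.96 ± 0.38 and the same p. Both differences were larger than their spread between libraries, and Pros1 had the higher level per length in each library. On the linear scale Pros1 had 1.63, 2.48 and 2.48 times the level of Mertk in replicates 1, 2 and 3. Without gene length the differences shrank to -0.68 for Mertk and -1.09 for Tyro3, and with annotated transcript lengths that for Tyro3 was -1.29.

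Pairs with Gas6 spread much more. Mertk minus Gas6 was -0.90, 0.04 and -3.29, with a mean of -1.38 ± 1.71 (exact permutation p = 0.5, adjusted p = 0.667). Mertk and Gas6 were level in replicate 2 and far apart in replicate 3, where Gas6 had 10.7 times the level of Mertk. Axl minus Gas6 was -1.80, -0.07 and -3.99, a mean of -1.95 ± 1.96, so that Axl and Gas6 were also nearly level in replicate 2. Tyro3 minus Gas6 averaged -2.30 ± 1.37. Both differences were below 0 in each of the 3 libraries (by the exact permutation test p = 0.25, adjusted p = 0.429 for each). Only the Tyro3 difference of these 3 exceeded its spread. Without replicate 3 they were -0.43 for Mertk, -0.94 for Axl and -1.55 for Tyro3, and without replicate 2 that for Mertk was -2.09. Without gene length they were -0.19, -0.33 and -0.60 in the same order, and with annotated transcript lengths -0.90, -1.02 and -1.19.

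**Figure D2:**
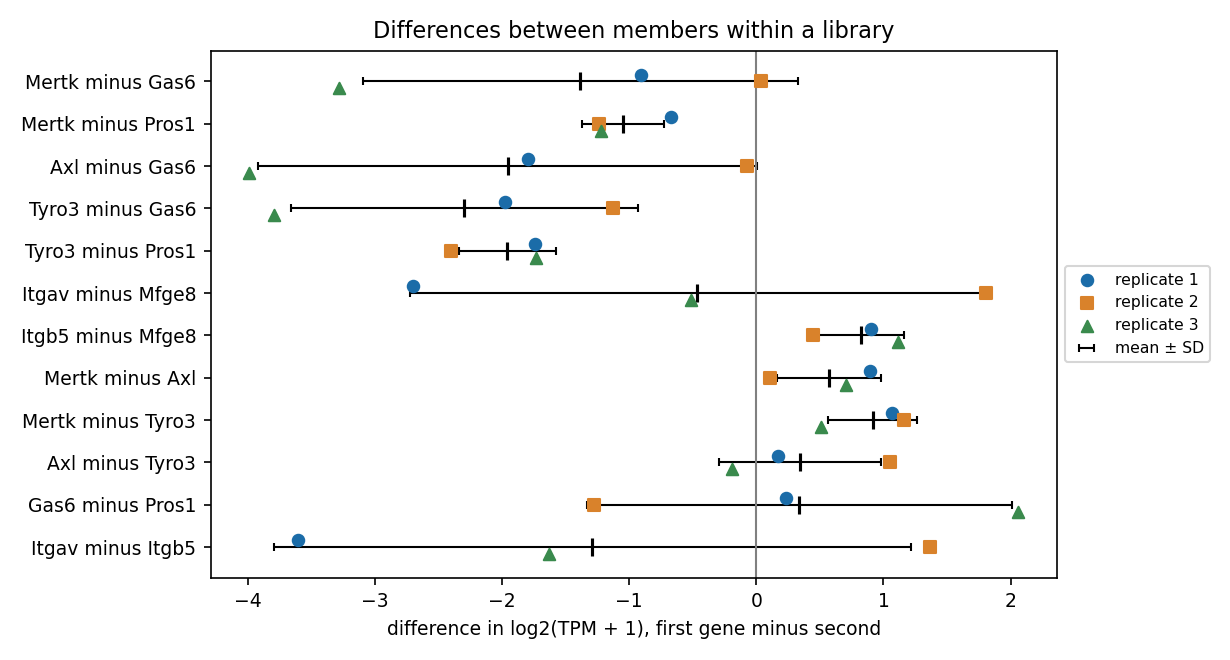
Differences in log2(TPM + 1) between 2 genes of the same library for the 12 pairs compared, with 1 symbol per library and the mean ± SD in black. Mertk and Tyro3 minus Pros1 are narrow, with SDs of 0.32 and 0.38, while both pairs with Itgav cross 0, Itgav minus Mfge8 lying at -2.70, 1.81 and -0.52.

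The bridge to integrins and its receptor chains were counted in every library, but Itgav was uneven. Mfge8 encodes MFG-E8, or lactadherin, which binds phosphatidylserine with its C domains and integrins with an Arg-Gly-Asp (RGD) motif (chromosome 7, 78783516 to 78798808). It had 626, 246 and 588 counts, or 10.5, 4.55 and 11.1 TPM, in replicates 1, 2 and 3. Replicates 1 and 3 were alike and replicate 2 was lower, and the mean was 8.73 ± 3.63 TPM (limma, adjusted p = 0.00294). Without replicate 1 (limma, adjusted p = 0.0744), without replicate 3 (0.057) and with every gene of the table in the fit (0.0712) it did not pass.

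The RGD codons of Mfge8 are shown because they are the part that joins this ligand to the integrin genes below. They lie in exon 3 of 10 at chr7:79145299-79145325 (minus strand, GRCm38), at codon 87 of the 463 that the GENCODE vM21 transcript encodes, and were found at that place only.
Mfge8: gacacacagCGTGGGGACatcttcacc
The capitals mark the 3 codons.

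Itgb5 encodes the β5 chain, which pairs with αv in the receptor for MFG-E8 (chromosome 16, 33650035 to 33769708). It stood at 20.6, 6.54 and 25.2 TPM from 795, 230 and 868 counts, a mean of 17.4 ± 9.72 TPM (limma, adjusted p = 0.00159). Replicate 2 was lowest, as for Mfge8. The call ended without replicate 1 (limma, adjusted p = 0.074), without replicate 3 (0.0528) and with every gene of the table in the fit (0.0841). Itgav, the αv chain itself (chromosome 2, 83554741 to 83637260), had 79, 1720 and 682 counts, or 0.771, 18.4 and 7.47 TPM. Its level in replicate 2 was 23.9 times that in replicate 1, while counting error gives a coefficient of variation of 7.001%.

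Itgav averaged 8.89 ± 8.92 TPM and did not pass limma's test against 1 TPM (adjusted p = 0.0735). It passed without replicate 1 (limma, adjusted p = 0.048), among genes with a count in every library (0.0358) and without gene length (0.00311), and did not with annotated transcript lengths (0.0577). Replicate 2, where Itgav was highest, also had the largest share of mitochondrially encoded counts, at 5.40% against 2.40% in replicate 1 and 2.60% in replicate 3; the part of this in the Itgav level was not tested. Itgav minus Itgb5 was -3.61, 1.37 and -1.63, with a mean of -1.29 ± 2.50 (exact permutation p = 0.5, adjusted p = 0.667). It was -0.13 without replicate 1, -2.62 without replicate 2 and -0.19 without gene length.

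Itgav minus Mfge8 averaged -0.47 ± 2.26, a difference smaller than its spread (exact permutation test, p = 0.75 and adjusted p = 0.75). It turned to 0.65 without replicate 1 and to 0.072 without gene length. Itgb5 minus Mfge8 was 0.90, 0.44 and 1.11, a mean of 0.82 ± 0.34, with the receptor chain higher in each of the 3 libraries (by the exact permutation test p = 0.25, adjusted p = 0.429). That order depended on the length given to Mfge8. With annotated transcript lengths the difference turned to -0.23, and without gene length it was 0.27.

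With the deposited gene lengths, Lrp1 and Timd4 stood at opposite ends of the receptors. Lrp1 encodes a giant endocytic receptor of the LDL receptor family (chromosome 10, 127374030 to 127457017). It had 3219, 1364 and 3269 counts, the most of the 10 genes in replicates 1 and 3, and 20.7, 9.65 and 23.6 TPM in replicates 1, 2 and 3. With a mean of 18.0 ± 7.37 TPM it was the highest of the receptors, beside Itgb5 (limma, adjusted p = 0.000468). With annotated transcript lengths Itgb5 stood higher, at a mean of 17.6 TPM against 15.0 TPM for Lrp1. Timd4, or TIM-4, binds phosphatidylserine directly and marks some resident macrophages (chromosome 11, 46701627 to 46735159). It had 19 counts in replicate 1, or 1.18 TPM, and 0 counts in replicates 2 and 3. A count of 0 allows up to 3 counts, or 0.204 TPM in replicate 2 and 0.209 TPM in replicate 3, for counting error only. Timd4 did not pass (limma, adjusted p = 1.00), and at this depth it was not detectable in those 2 libraries.

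Over all genes of each role, the receptors had a mean level of 3.04, 2.87 and 3.04 in replicates 1, 2 and 3 on the log2(TPM + 1) scale, and the ligands 4.46, 3.62 and 4.94. The receptor mean minus the ligand mean was -1.42, -0.75 and -1.90, or -1.36 ± 0.58. The ligand mean thus stood higher in each library. Single genes did not all follow, as Mfge8 (3.20 on this scale) had a lower mean than Mertk (3.69), Itgb5 (4.02) and Lrp1 (4.16). Itgav (2.73) was below Mfge8 on this scale, and their mean levels were 8.89 and 8.73 TPM. The receptor mean also includes Timd4, at only 0.37 on this scale. It moved less between libraries than the ligand mean (SD 0.10 and 0.67). The receptor mean covers 7 genes and the ligand mean 3, and the part of this in the spread was not tested. No test is given, because the genes are not replicates and were chosen with earlier results known. Of the 7 receptor and ligand pairs, 6 had the receptor lower on average.

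Ordered by mean TPM the genes ran Gas6, Pros1, Lrp1, Itgb5, Mertk, Itgav, Mfge8, Axl, Tyro3 and Timd4. Of the 9 steps between neighbours, 1 exceeded its spread with the same sign in every library, that of Tyro3 above Timd4 (2.41 ± 0.45 on the log2(TPM + 1) scale). The other 8 steps do not separate neighbours. Gas6, Mfge8, Itgb5 and Lrp1 shared 1 library order, with replicate 3 highest and replicate 2 lowest. That order was also the most frequent of the 6 possible ones, held by 22.5% of the 18083 genes with a count in every library.

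Like Itgb5 and Lrp1, the ligands Gas6 and Mfge8 moved in the same order over the libraries. The promoters of Gas6 and Mfge8 are shown for that reason. Both come from RefSeq on build GRCm38.p6, run from 250 bases before the gene start to 50 after it, and carry in capitals each GC box, searched as GGGCGG and its reverse CCGCCC, where matches could overlap. The Gas6 window is chr8:13494486-13494785 and the Mfge8 window chr7:79149011-79149310, both on the minus strand.
Gas6: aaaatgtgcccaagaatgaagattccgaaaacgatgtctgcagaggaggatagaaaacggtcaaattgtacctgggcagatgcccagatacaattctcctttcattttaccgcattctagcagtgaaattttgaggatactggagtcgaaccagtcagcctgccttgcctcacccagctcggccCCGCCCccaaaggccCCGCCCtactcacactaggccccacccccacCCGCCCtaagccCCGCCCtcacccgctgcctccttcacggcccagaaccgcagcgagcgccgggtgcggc
Mfge8: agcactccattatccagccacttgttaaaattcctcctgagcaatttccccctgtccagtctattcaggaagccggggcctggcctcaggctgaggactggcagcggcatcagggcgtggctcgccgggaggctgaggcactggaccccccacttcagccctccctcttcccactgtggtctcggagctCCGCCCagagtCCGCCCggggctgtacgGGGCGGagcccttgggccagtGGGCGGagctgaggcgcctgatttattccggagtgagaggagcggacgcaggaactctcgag
Each of these windows holds 4 GC boxes, and that of Pros1, not shown, holds 5. Of the 10 genes 9 have at least 1, Timd4 being the exception. Of all 32851 promoter windows of this length, 35.7% hold a GC box. None of the 10 windows holds the E-box CACGTG, present in 7.15% of all windows, or the TATA box TATAAA or its reverse, present in 13.6%. These matches describe letters and say nothing about binding.

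Levels between genes rest on the length behind the deposited FPKM, which was longer than the annotated transcript for 8 of the 10 genes. For Mfge8 it was 8002 bases against 2125 in the GENCODE vM21 transcript with the longest coding sequence, a ratio of 3.77. For Tyro3 the ratio was 2.32, for Axl 2.00 and for Mertk 1.42, and for Gas6 and Timd4 it was 1.00. The median ratio over genes tested was 1.41. With the annotated lengths, an alternative chosen after seeing the data, Mfge8 averaged 19.5 ± 7.96 TPM, Gas6 28.0 ± 27.5 TPM and Pros1 21.3 ± 2.08 TPM. Mertk then averaged 10.3 ± 3.04 TPM, Axl 9.51 ± 3.02 TPM and Tyro3 8.22 ± 1.94 TPM. The 3 ligands then had the 3 highest means, within the spread of Gas6, and the receptor mean minus the ligand mean was -1.35.

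**Figure D3:**
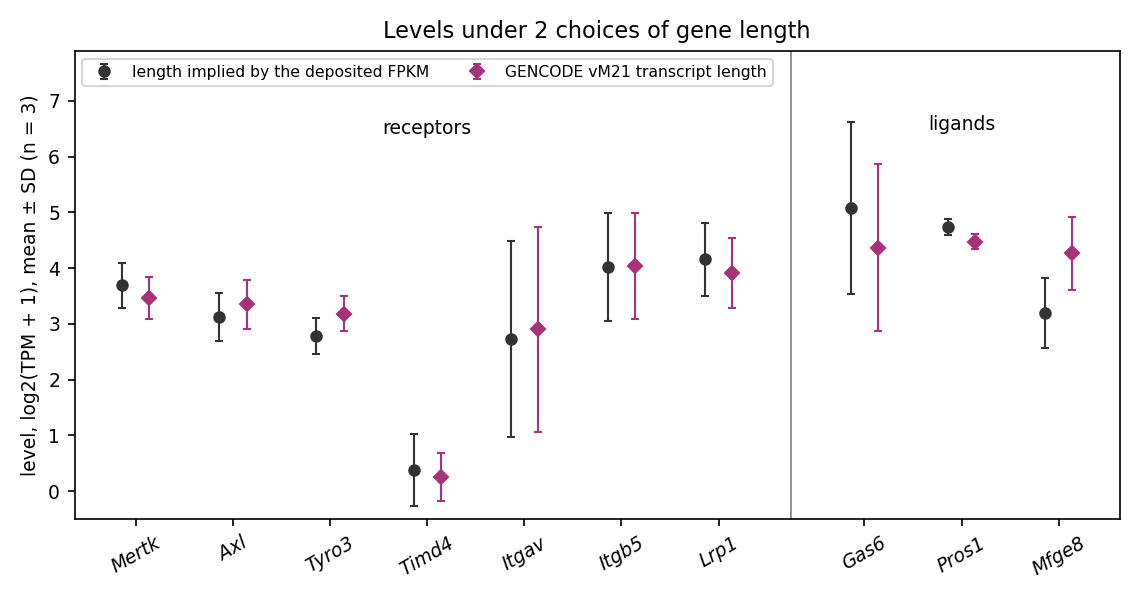
Mean log2(TPM + 1) ± SD over 3 libraries for each gene, with the length implied by the deposited FPKM (black circles) and with the GENCODE vM21 transcript length (purple diamonds), receptors left and ligands right. Mfge8 moves most, with a mean of 19.5 TPM under the annotated length and 8.73 TPM under the deposited one.

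Some list genes had library profiles close to those of the clearance genes. The measure is the Euclidean distance between log2(TPM + 1) profiles centred on their mean over the 3 libraries, and so few points make close profiles common. Nearest to Mertk were the lipid kinase gene Pik3c3 (distance 0.02, with 9 of all genes tested as near) and the signalling inhibitor gene Socs1 (0.11, with 217 as near). Nearest to Axl were the adaptor gene Crk (0.10, 146 as near) and the proteoglycan gene Dcn (0.13, 233 as near). Nearest to Mfge8 were the vitamin K reductase gene Vkorc1l1 (0.04, 19 as near) and Ggcx (0.19, 354 as near). Nearest to Gas6 were the neurofilament gene Nefh (0.70, 223 as near) and Mon1a (0.71, 229 as near), both highest in replicate 3.

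The enzymes that finish the ligands were among the transcripts counted. GAS6 and protein S need γ-carboxylation by GGCX, an enzyme driven by vitamin K that VKORC1 recycles. Vkorc1 stood at 135 ± 7.12 TPM and Ggcx at 6.85 ± 2.46 TPM, and both passed limma's test against 1 TPM (adjusted p = 1.3e-05 and 0.00463). Lrpap1, the chaperone of LRP1 in the secretory pathway, stood at 169 ± 37.3 TPM. Of the sheddases that cut MERTK and AXL from the surface, Adam10 (9.26 ± 7.29 TPM) passed and Adam17 (3.75, 0.910 and 2.13 TPM in replicates 1, 2 and 3) did not. Adam17 passed without gene length (limma, adjusted p = 0.00266). In all 5 of 7 maturation genes passed, beside 50.5% of protein-coding genes, with a median of 6.85 TPM. The calls for Ggcx and Adam10 ended without replicate 1 (limma, adjusted p = 0.0794 and 0.203) and without replicate 3 (0.0629 and 0.195).

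A few genes of the list of other bridging proteins stood far above the 3 ligands, while the other uptake receptors were mostly low. Of that list, 6 of 10 passed (median 9.85 TPM), beside 50.5% of protein-coding genes. The highest were the phosphatidylserine-binding annexin Anxa5 (1321 ± 531 TPM), Lgals3, encoding galectin-3, which can bind MERTK (149 ± 57.9 TPM), and Anxa1 (125 ± 68.6 TPM). A place on the list does not show that a protein acts as a bridge. Of the other receptors, 2 of 12 passed (median 1.01 TPM): the scavenger-type Megf10 (13.9 ± 7.39 TPM) and Cd36, which works with αv integrins (8.14 ± 5.04 TPM). The next in level, Ager, had 2.54, 0.539 and 4.06 TPM over replicates 1, 2 and 3 and passed, of the settings tried, only with annotated transcript lengths (limma, adjusted p = 0.0436). The calls for Megf10 and Cd36 ended without replicate 1 (limma, adjusted p = 0.0666 and 0.142) and without replicate 2 (0.067 and 0.142). Havcr1 had no count in any library. Among the other β chains that can join αv, Itgb1 stood at 44.7 ± 6.92 TPM (limma, adjusted p = 2.23e-05) and was the 1 of 4 that passed. Itgb8 stood at 3.09 ± 0.847 TPM and Itgb3 at 2.98, 0.514 and 0.507 TPM in replicates 1, 2 and 3.

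**Figure D4:**
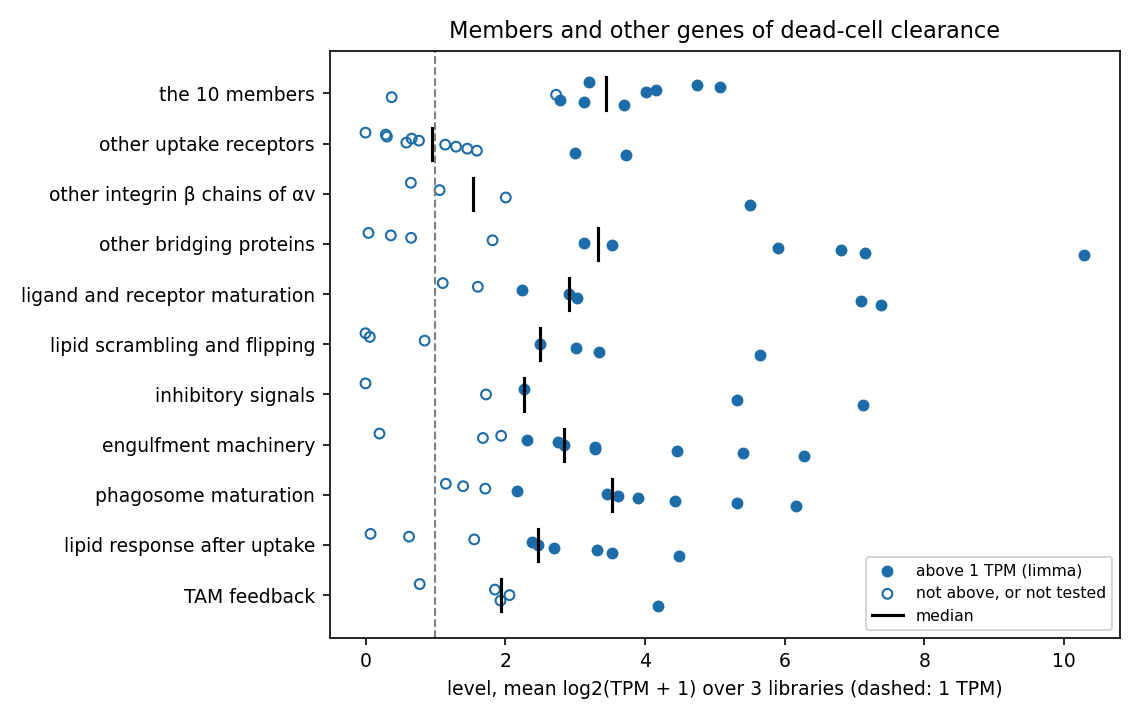
Mean log2(TPM + 1) over 3 libraries for each of the 10 genes (top row) and of the other genes of dead-cell clearance by function, filled where limma's test put the gene above 1 TPM, with a black bar at the median of each row and a dashed line at 1 TPM. Of the genes below the top row 43 of 80 are filled, and the row of other uptake receptors has 2 of 12.

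Signals on the cell to be taken up, and the signals that hold uptake back, were uneven. Of genes for lipid scrambling and flipping 4 of 7 passed (median 4.83 TPM), beside 50.5% of protein-coding genes. Among them were Tmem30a, the shared subunit of the flippases (50.2 ± 13.4 TPM), the flippase Atp11a (9.85 ± 4.94 TPM) and the scramblase Ano6 (7.61 ± 3.35 TPM). Xkr8, the scramblase cut by caspases during apoptosis, had 8, 127 and 0 counts in replicates 1, 2 and 3 and did not pass. Of the inhibitory genes 3 of 5 passed (median 4.83 TPM), beside the same 50.5%. Cd24a stood at 163 ± 92.8 TPM and Cd47, the widespread brake on phagocytosis, at 39.7, 38.0 and 39.6 TPM. Sirpa, the receptor for CD47 on myeloid cells, had 1.13, 13.2 and 0.197 TPM over replicates 1, 2 and 3 and did not pass (limma, adjusted p = 0.391). Cd47 was thus steady across libraries, while Sirpa and Xkr8 were both highest in replicate 2, as Itgav was. The calls for Atp11a and Ano6 ended without replicate 1 (limma, adjusted p = 0.0554 and 0.0805), and that for Ano6 also without replicate 3 (0.073).

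The machinery that follows binding was present in larger part. Of the engulfment genes 8 of 11 passed (median 6.38 TPM), led by the GTPases Rac1 (78.6 ± 23.8 TPM) and Rhog (43.4 ± 17.6 TPM) and by Crk (21.8 ± 7.26 TPM). Of the genes of phagosome maturation 7 of 10 passed (median 11.96 TPM), led by the GTPases Rab7 (71.0 ± 6.27 TPM) and Rab5a (39.2 ± 6.88 TPM) and by Becn1, a subunit of the lipid kinase complex (20.7 ± 1.00 TPM). These genes serve endocytosis and autophagy in most cells. Some calls of both lists ended without replicate 1, while those of the genes named here did not. Over all 80 genes of the function lists 43 passed, beside 50.5% of protein-coding genes, with a median of 4.43 TPM beside 4.55 TPM over protein-coding genes.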

How the data were processed

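Polyadenylated RNA of 3 libraries was reverse transcribed from oligo(dT) primers (SMART-Seq HT kit), PCR-amplified and sequenced on an Illumina NovaSeq instrument, per the labels' protocols. The submitters' processing notes name HISAT2, StringTie, edgeR and the build GRCm39, with no version, role or order. The deposited table gives raw counts and FPKM per gene, per the file headers. The deposited FPKM equals count over a fixed length per gene and the column total; this length differed between libraries by at most 0.0528%. Strand and the treatment of reads that match several genes are not given in the sources used here, so levels of genes that overlap others are uncertain.

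From these, FPKM was rescaled to TPM and tested as log2(TPM + 1), a scale that compresses low values, with limma 3.58.1 in R 4.3.3 (intercept-only, mean-variance trend) over the 27265 genes counted in 1 library or more. Differences between genes of a library were tested by exact sign-flip permutation over 3 libraries. With edgeR 4.0.16 the common biological coefficient of variation of the counts was 0.934, and those of the 10 genes ran between 0.393 and 2.32. The test was run on simulated data with known levels first. Alternatives were other pseudocounts, filters, scalings (edgeR's TMM, DESeq2 1.42.0 size factors, CPM without length), no trend, leaving out each library and, added after seeing the data, annotated transcript lengths. Those lengths covered 95.3% of genes tested. A floor of 3 counts equals 0.163, 0.199 and 0.213 CPM in replicates 1, 2 and 3, for counting error only, since PCR copies carry no molecular identifiers.

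The 10 genes and all lists were chosen with earlier results of these data known. The text names the 10 genes, the 3 highest of each function list, 9 set genes (Cd47, Sirpa, Xkr8, Ggcx, Vkorc1, Adam17, Lrpap1, Itgb1 and Itgb3), and the 2 list genes nearest in profile to Mertk, Axl, Gas6 and Mfge8. Tmem255b, Havcr1 and the marker genes S100b, Coch and Lyz2 were named after their values were seen. Promoter windows from RefSeq matched 10 of 10 genes, and transcripts came from GENCODE vM21, both on GRCm38, of which positions are printed for sequences only. Sequences were handled with Biopython 1.88. The values of 1 gene of the feedback list are not reported here.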

Additional observations from a re-analysis of the deposited data

How the results depend on the processing

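The number of the 10 genes above 1 TPM was 8, and stayed within 1.5 times of that except with no filter on counts (5) and without replicate 1. Leaving out each library in turn gave 4 to 8 of the 10 genes, 22 to 32 of the 80 genes of the function lists and 6794 to 8285 of all genes, against 8, 43 and 10264 with all libraries. With no filter on counts the function lists gave 25. The receptor mean minus the ligand mean was -0.67 without gene length and between -1.66 and -1.08 with each library left out.

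Of the 12 pairs, the mean difference turned in sign for Gas6 minus Pros1 (-0.49 without gene length, -0.11 with annotated transcript lengths), Itgav minus Mfge8 (0.072 without gene length) and Itgb5 minus Mfge8 (-0.23 with annotated lengths). With each library left out in turn, the lowest and highest values were -1.61 and 0.65 for Itgav minus Mfge8, -0.0090 and 0.61 for Axl minus Tyro3, and -0.52 and 1.15 for Gas6 minus Pros1. Pseudocounts of 0.1 and 5, TMM and DESeq2 size factors turned none of the 12. The cause of these changes was not tested, except that 2 libraries leave fewer samples. No paired comparison of groups was possible because the labels give only 1 group, while differences between genes were paired by library. With 3 libraries the exact sign-flip permutation test used for differences between genes cannot go below p = 0.25, and amplification from few cells adds spread that depth does not reduce.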

Other observations

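Genes of the lipid response that follows uptake were present in part. Of 9 genes 6 passed limma's test against 1 TPM (median 4.83 TPM), beside 50.5% of protein-coding genes. The mitochondrial carrier Ucp2 stood at 29.2, 11.1 and 29.97 TPM in replicates 1, 2 and 3, the liver X receptor gene Nr1h2 at 13.9, 4.83 and 16.8 TPM, and the cholesterol exporter Abca1 at 11.2, 9.89 and 6.49 TPM. Ucp2 and Nr1h2 were lowest in replicate 2, as were Gas6, Mfge8, Itgb5 and Lrp1. Leaving out replicate 1 ended the call for Nr1h2 (limma, adjusted p = 0.0865), and so did leaving out replicate 3 (0.0633).

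In mouse macrophages TAM receptors damp interferon signalling through SOCS proteins. Of 5 genes of this feedback 1 passed, beside 50.5% of protein-coding genes. It was the interferon receptor chain Ifnar2 (18.1 ± 6.64 TPM). Ifnar1, the partner chain, stood lower, with 3.30, 1.69 and 5.31 TPM over the 3 libraries, and did not pass. It passed without gene length (limma, adjusted p = 0.000624) and with annotated transcript lengths (0.0185). The same held with a pseudocount of 0.1 (0.0338), among genes with a count in every library (0.0281) and without the trend (0.0361). In the other settings Ifnar1 did not pass.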
